A study of Homo sapiens with 9 samples.

Results

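The E2F transcription factors and the pocket proteins that bind them are described here in A549 cells, a human lung adenocarcinoma line, in which the translesion synthesis polymerase REV1 was targeted by siRNA. Members were the rows whose gene symbol was E2F1 to E2F8, RB1 or RBL1, which gave 10 genes of 18143 listed. All 10 were among the 14205 genes that passed the filter on low counts. RNA was taken 48 h after transfection with a scramble siRNA (Scramble), SiREV1#1 or SiREV1#2, the latter being 2 different siRNAs that target REV1, with 3 numbered replicates per group and 9 libraries in all. All groups were the same cell line and all were transfected, and no untransfected cells were compared. The study's methods state in general that cell experiments were done independently in triplicate, while the labels do not say how these replicates were made, so p-values measure the spread between these libraries. The study asked what changes in the transcriptome when REV1 is lowered, and it followed SERTAD2, a coregulator of E2F-dependent transcription.

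E2F proteins bind DNA mostly as dimers with a DP partner and control genes for DNA replication and the cell cycle. E2F1, E2F2 and E2F3 are best known as activators, and E2F4 and E2F5 as repressors that work with pocket proteins. E2F6 represses through a Polycomb complex, and E2F7 and E2F8 repress without a DP partner. RB1 (the retinoblastoma protein), RBL1 (p107) and RBL2 (p130) are the pocket proteins, which hold E2F in check until cyclin-dependent kinases phosphorylate them. Several genes of the family carry E2F sites in their own promoters.

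That last property can be seen in the reference sequence. The letters TTTNNCGC, the core of an E2F site, were searched on both strands of RefSeq promoter windows (GRCh38.p14) that run from 250 bases before to 50 bases after a start site. They were found in 4 of the 8 members with a window, namely E2F1, E2F2, E2F3 and RBL1, and in 6.89% of all 35116 windows. E2F1, E2F2 and RBL1 were lower after both siRNAs in every same-numbered pair of libraries, and so was E2F7, whose window held no match. E2F3 and RBL1 had the largest changes after SiREV1#1. Whether a match bears on these levels was not tested. The stretches of 30 bases around every match are shown. They are written 5′ to 3′ on the strand of the gene, with the matches in capitals, and matches can overlap.
E2F1, chr20:33686489-33686518, minus strand: ccgggtccggcGCGTTAAAgccaataggaa
E2F1, chr20:33686391-33686420, minus strand: tcGCGGCAAAaaggaTTTGGCGCGTAAAAg
E2F2, chr1:23531292-23531321, minus strand: ggagcgcggcaTTTTCCGCgggagatccga
E2F2, chr1:23531255-23531284, minus strand: ggcacgacgTTTGGCGCTAAAaaaaaaaaa
E2F3, chr6:20401815-20401844, plus strand: ttgaaaagccgGCGGGAAAtccgagtttcg
RBL1, chr20:37096000-37096029, minus strand: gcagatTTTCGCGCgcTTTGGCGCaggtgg

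E2F1 had 4 matches, 3 of them within 35 bases before its start site. E2F2 had 3 matches, RBL1 had 2 and E2F3 had 1. The letters TTTGAA, the core of the cell cycle homology region bound by the MuvB complex, were found on either strand in the window of E2F3 and in 15.2% of all windows. A match is a description of the letters, and binding was not measured.

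A second set of sequences concerns the siRNAs. A small RNA can also pair with other transcripts through bases 2 to 8 of its guide strand. The 7 letters that pair with those bases were therefore searched in the members and in 13794 genes in all. A single annotated transcript was used per gene, the one with the longest 3′ UTR, and whether A549 cells express it was not examined. For SiREV1#1 the word CAGGAAT occurred in the 3′ UTR of E2F3 alone among the 10 members, against 17.3% of genes, and in the coding sequence of 0 members, against 13.3%. For SiREV1#2 the word GGACGAC occurred in the 3′ UTR of 0 members, against 2.43%, and in the coding sequence of E2F2 and RBL1, against 8.11%. All sites found in the members are shown with the word in capitals.
E2F3, SiREV1#1 word: ttactcttCAGGAATggtgtccc
E2F2, SiREV1#2 word: ttggaccaGGACGACtacctgtg
RBL1, SiREV1#2 word: gaagccctGGACGACtttactgc

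The word in E2F3 lies at bases 2894 to 2900 of the transcript E2F3-201, on the plus strand of chromosome 6 at 20491860 to 20491866 (GRCh38), in exon 7 of 7. The word in E2F2 lies in exon 7 of 7 of E2F2-201, on the minus strand of chromosome 1 at 23509961 to 23509967. The word in RBL1 lies in exon 1 of 22 of the annotated transcript searched, on the minus strand of chromosome 20 at 37095806 to 37095812. Whether any of these words bears on the levels given below was not tested. E2F3 was lower after SiREV1#1, whose word it holds, and E2F2 after SiREV1#2, whose word it holds. E2F2 was also below Scramble in 3 of 3 same-numbered pairs after SiREV1#1, whose word was not found in it. RBL1 holds the word of SiREV1#2 and was lower by more after SiREV1#1. E2F7, in which neither word was found, was lower after SiREV1#2.

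Total counts were between 13059082 and 20166451 in the 8 libraries with counts of their own. The count column of SiREV1#2 replicate 3 equalled that of replicate 2 at 100.0% of genes and was counted once, so count tests had 2 libraries of that group and values in FPKM, which scales fragments by the length of the transcript and by sequencing depth, had 3. REV1 itself was at 7.23, 7.90 and 8.44 FPKM in Scramble replicates 1, 2 and 3, at 2.60, 2.92 and 3.36 after SiREV1#1 and at 3.62, 3.36 and 3.18 after SiREV1#2. It fell after SiREV1#1 in the edgeR fit without a block (log2 fold change -1.26 ± 0.17 SE, adjusted p = 0.042). After SiREV1#2 its log2 fold change was -1.33 ± 0.20 SE without a block (adjusted p = 0.15). With the replicate number as a block it was -1.27 ± 0.15 SE (adjusted p = 0.0099), so of these 2 edgeR fits the second alone called it. DESeq2 without a block (adjusted p = 2.8e-10) and limma-trend on log2(FPKM + 1) with the block (adjusted p = 0.0039) also called this fall. Replicate 1 stood apart from replicates 2 and 3 in every group. The epithelial markers KRT8, KRT18, KRT7, EPCAM and CDH1 summed to between 5680 and 11608 FPKM over the 9 libraries, with EPCAM between 0.73 and 2.38. In these libraries the fibroblast markers summed to at most 1.62 FPKM (COL3A1, DCN and THY1 were under 0.1 throughout) and the endothelial markers to at most 0.14 (CDH5 and VWF were under 0.1). The leukocyte markers PTPRC and CD14 summed to between 0.2 and 6.36. CD14 was at 5.73, 5.89 and 5.04 FPKM in replicate 1 of Scramble, SiREV1#1 and SiREV1#2. It was between 0.13 and 0.43 in replicates 2 and 3 of these groups.

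In Scramble cells the family spanned about an order of magnitude per transcript length. E2F4 was highest at 43 ± 10.5 FPKM (SD, n = 3 here and in all group means below). It was followed by E2F6 at 13.1 ± 2.48, RB1 at 12.8 ± 3.18, E2F5 at 11.5 ± 2.99, E2F1 at 11.1 ± 3.84 and E2F3 at 8.07 ± 1.37. The lowest levels were those of E2F8 at 5.86 ± 1.5, RBL1 at 5.44 ± 0.598, E2F7 at 3.96 ± 1.04 and E2F2 at 3.69 ± 0.643. Between neighbours in this order the ranges of the libraries were separate for E2F4 and E2F6 and for RBL1 and E2F7. Within libraries RB1 was also above E2F5 (by 1.26, 0.53 and 2.04 FPKM) and E2F3 above E2F8 (by 2.43, 1.87 and 2.35) in 3 of 3, although their ranges overlapped, and the order of the other neighbours changed between libraries.

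**Figure D1:**
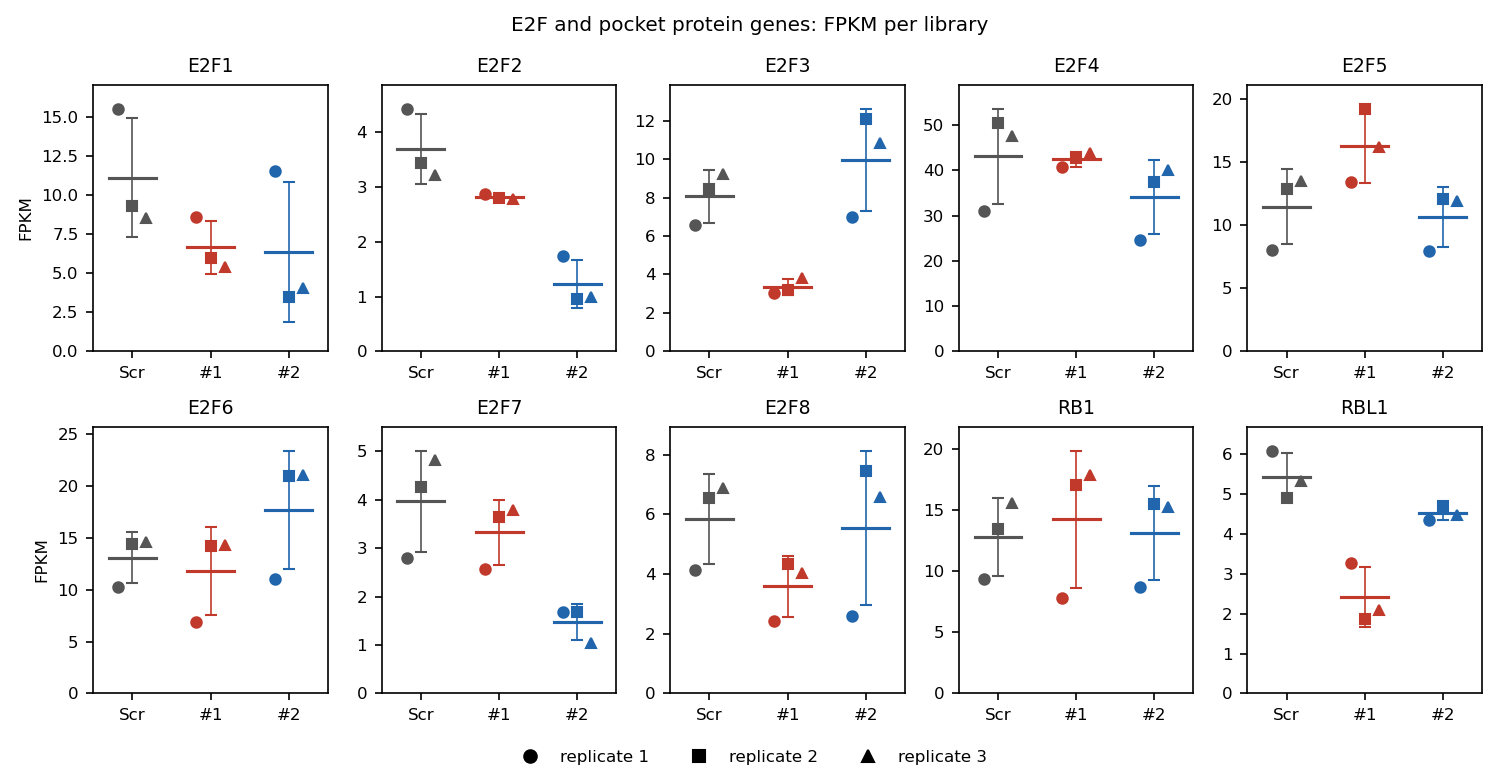
FPKM of each of the 10 genes (vertical axes, each from 0) in Scramble (Scr), SiREV1#1 (#1) and SiREV1#2 (#2) libraries, with the marker shape giving the replicate number, horizontal lines the group means and error bars the SD of 3 libraries. E2F3 and RBL1 are lowest after SiREV1#1, and E2F2 and E2F7 are lowest after SiREV1#2.

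The effect of REV1 siRNA on the family was asked first over all 10 members. Without a block, 0 of 10 members passed an adjusted p of 0.05 in any of the 3 comparisons by edgeR's quasi-likelihood test. The same fit called 0.296% of all genes after SiREV1#1, 0% after SiREV1#2 and 0.676% between the siRNAs. At an unadjusted p under 0.05 it held 2, 2 and 4 members, where it held 9.75%, 5.48% and 12.4% of all genes. DESeq2 called 2, 2 and 3 members and 4.55%, 1.68% and 6.65% of the genes to which it gave an adjusted p. With the replicate number as a block, the number of members called was 3 after SiREV1#1 (12.3% of all genes were called), 2 after SiREV1#2 (1.91%) and 5 between the siRNAs (17.6%). In that fit E2F3 and RBL1 fell and E2F5 rose after SiREV1#1, and E2F2 and E2F7 fell after SiREV1#2. All members named below as having fallen or risen passed in the edgeR fit with the block and not in the edgeR fit without it. DESeq2, also fitted without a block, called E2F3 (adjusted p = 0.0017) and RBL1 (0.016) after SiREV1#1 and not E2F5 (0.52). After SiREV1#2 it called E2F2 (0.001) and E2F7 (0.012).

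limma-trend on log2(FPKM + 1) with the block, which used all 9 libraries, called 4 members after SiREV1#1 (E2F3, E2F5, E2F8 and RBL1, against 15.5% of all genes), 3 after SiREV1#2 (E2F1, E2F2 and E2F7, against 8.61%) and 6 between the siRNAs (30.8%). The median log2 fold change of the 10 members with the block was -0.28 after SiREV1#1, where that of all genes tested was 0.00, and -0.25 after SiREV1#2, where it was 0.01.

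**Figure D2:**
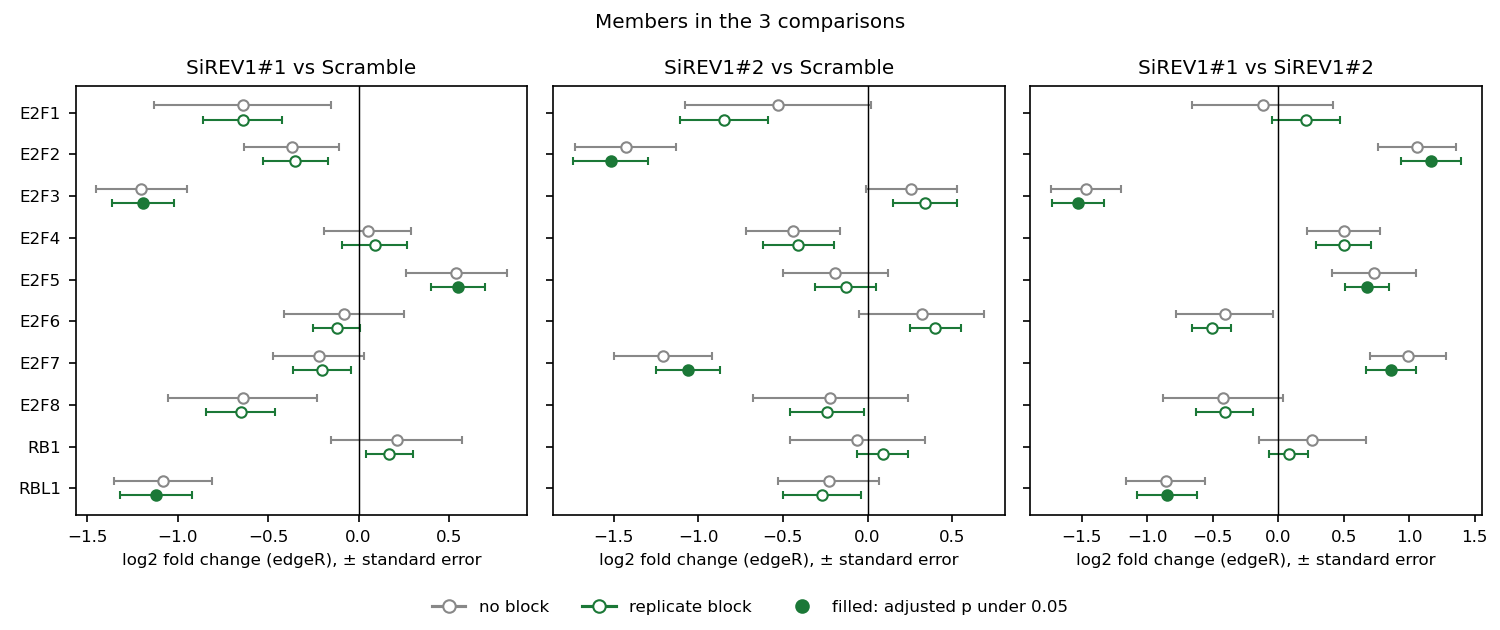
edgeR log2 fold changes with standard errors (horizontal axes) of the 10 members in the 3 comparisons, without a block (grey, 8 libraries) and with the replicate number as a block (green), filled where the adjusted p was under 0.05. Standard errors are smaller with the block, the estimate of E2F1 between the siRNAs turns from -0.12 to 0.21, and E2F3 has opposite signs in the first and second panels.

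E2F3, an activator needed for S-phase entry, had the largest difference between the siRNAs among the 10 members. It was at 6.56, 8.42 and 9.24 FPKM in Scramble replicates 1, 2 and 3, at 3.02, 3.19 and 3.80 after SiREV1#1 and at 6.97, 12.07 and 10.83 after SiREV1#2. The 3 SiREV1#1 libraries were thus below every other library, while the SiREV1#2 libraries overlapped with Scramble. With the block E2F3 fell after SiREV1#1 (log2 fold change -1.19 ± 0.17 SE, adjusted p = 0.0059), where the fit without a block gave -1.20 ± 0.25 SE and an adjusted p of 0.14. This call was lost without Scramble replicate 1 or Scramble replicate 2, and the adjusted p ranged from 0.0011 to 0.058 over the 8 fits that leave out 1 library. After SiREV1#2 the log2 fold change was 0.34 ± 0.19 SE with the block (adjusted p = 0.42). The direct contrast of the siRNAs was -1.53 ± 0.20 SE with the block (adjusted p = 0.0033) and passed in 8 of 8 such fits.

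E2F1, the founding activator of the family, was at 15.55, 9.34 and 8.54 FPKM in Scramble, at 8.62, 5.97 and 5.42 after SiREV1#1 and at 11.56, 3.46 and 4.08 after SiREV1#2. Replicate 1 was the highest library of each group, so that the groups overlapped, although both siRNAs were below Scramble in 3 of 3 same-numbered pairs. The log2 fold change with the block was -0.64 ± 0.22 SE after SiREV1#1 (adjusted p = 0.094) and -0.85 ± 0.26 SE after SiREV1#2 (adjusted p = 0.14). limma-trend with the block called the second of these (log2 difference -0.84 ± 0.19 SE, adjusted p = 0.033) and not the first (-0.64 ± 0.19 SE, adjusted p = 0.056).

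E2F2, the third activator, was at 4.42, 3.44 and 3.21 FPKM in Scramble, at 2.87, 2.79 and 2.77 after SiREV1#1 and at 1.74, 0.96 and 1.00 after SiREV1#2. The 3 groups did not overlap, with Scramble highest and SiREV1#2 lowest. It fell after SiREV1#2 with the block (log2 fold change -1.52 ± 0.22 SE, adjusted p = 0.022), where the fit without a block gave -1.43 ± 0.30 SE and an adjusted p of 0.34. The call was lost without Scramble replicate 1, Scramble replicate 2 or SiREV1#2 replicate 2, and the adjusted p ranged from 0.0054 to 0.21 over the 8 fits. After SiREV1#1 the value was -0.35 ± 0.18 SE (adjusted p = 0.25), and the contrast of the siRNAs was 1.17 ± 0.23 SE (adjusted p = 0.013), lost only without SiREV1#2 replicate 2 (adjusted p = 0.099).

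The repressors that work with pocket proteins differed from each other. E2F4, the most abundant member, was at 31.00, 50.53 and 47.61 FPKM in Scramble, at 40.63, 42.69 and 43.90 after SiREV1#1 and at 24.71, 37.30 and 40.08 after SiREV1#2. Its groups overlapped and it passed in none of the comparisons in either edgeR fit, with log2 fold changes with the block of 0.09 ± 0.18 SE after SiREV1#1 (adjusted p = 0.78) and -0.41 ± 0.21 SE after SiREV1#2 (adjusted p = 0.36). E2F5 was at 8.05, 12.88 and 13.53 FPKM in Scramble, at 13.43, 19.25 and 16.20 after SiREV1#1 and at 7.94, 12.08 and 11.94 after SiREV1#2. It was the only member higher after SiREV1#1 in 3 of 3 same-numbered pairs, although the SiREV1#1 and Scramble libraries overlapped. It rose after SiREV1#1 with the block (log2 fold change 0.55 ± 0.15 SE, adjusted p = 0.048), and this call stayed in 1 of 8 fits that leave out a library, the one without SiREV1#1 replicate 1, with adjusted p from 0.044 to 0.23. Without a block the value was 0.54 ± 0.28 SE (adjusted p = 0.65). The contrast of the siRNAs was 0.68 ± 0.17 SE with the block (adjusted p = 0.034) and stayed in 2 of 8. Exons of E2F5 overlap genes annotated on the opposite strand, and since the strand setting of the library is not stated, their reads cannot be told apart.

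E2F6, the Polycomb-linked repressor, was at 10.21, 14.38 and 14.62 FPKM in Scramble, at 6.87, 14.17 and 14.34 after SiREV1#1 and at 11.06, 20.91 and 21.01 after SiREV1#2. SiREV1#2 was above Scramble in 3 of 3 same-numbered pairs, and SiREV1#1 replicates 2 and 3 lay at the Scramble level. Neither comparison with Scramble passed in the edgeR fits (with the block, 0.40 ± 0.15 SE and adjusted p = 0.23 after SiREV1#2, and -0.12 ± 0.13 SE and adjusted p = 0.6 after SiREV1#1). Between the siRNAs the value was -0.51 ± 0.15 SE with the block (adjusted p = 0.056), and limma-trend with the block called it (-0.56 ± 0.13 SE, adjusted p = 0.013). E2F6 shares 11.6% of the 50-base words of its transcripts with those of other genes, its pseudogenes first, so that its value is uncertain where the counting split such reads.

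The atypical repressors E2F7 and E2F8 did not follow the same pattern. E2F7 was at 2.80, 4.27 and 4.82 FPKM in Scramble, at 2.56, 3.65 and 3.78 after SiREV1#1 and at 1.67, 1.69 and 1.04 after SiREV1#2. The SiREV1#2 libraries were below all others. It fell after SiREV1#2 with the block (log2 fold change -1.06 ± 0.19 SE, adjusted p = 0.04), where the fit without a block gave -1.21 ± 0.29 SE and an adjusted p of 0.44. That call stayed in 2 of 8 fits that leave out a library, those without SiREV1#1 replicate 1 or SiREV1#1 replicate 2, with adjusted p from 0.015 to 0.37. The contrast of the siRNAs was 0.86 ± 0.19 SE with the block (adjusted p = 0.022) and stayed in 5 of 8. E2F8 was at 4.13, 6.55 and 6.89 FPKM in Scramble, at 2.43, 4.33 and 4.02 after SiREV1#1 and at 2.60, 7.45 and 6.58 after SiREV1#2. SiREV1#1 lay below Scramble in 3 of 3 same-numbered pairs, with a log2 fold change of -0.65 ± 0.19 SE (block, adjusted p = 0.062) that limma-trend with the block called (-0.58 ± 0.15 SE, adjusted p = 0.037). After SiREV1#2 the sign differed between pairs. Exons of E2F8 overlap a gene annotated on the opposite strand.

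Of the pocket proteins, RBL1 was at 6.09, 4.91 and 5.33 FPKM in Scramble, at 3.28, 1.87 and 2.09 after SiREV1#1 and at 4.36, 4.71 and 4.49 after SiREV1#2. The 3 groups did not overlap, with Scramble highest and SiREV1#1 lowest. RBL1 fell after SiREV1#1 with the block (log2 fold change -1.12 ± 0.20 SE, adjusted p = 0.012), where the fit without a block gave -1.08 ± 0.27 SE and an adjusted p of 0.22. The call stayed in 4 of 8 fits that leave out a library and was lost without any 1 of the Scramble libraries or without SiREV1#1 replicate 3, with adjusted p from 0.0011 to 0.082. After SiREV1#2 the value was -0.27 ± 0.23 SE (adjusted p = 0.6), and the contrast of the siRNAs was -0.85 ± 0.23 SE (adjusted p = 0.039), which stayed in 2 of 8. Exons of RBL1 overlap a gene annotated on the opposite strand.

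RB1, the retinoblastoma gene, was at 9.31, 13.41 and 15.57 FPKM in Scramble, at 7.76, 17.06 and 17.84 after SiREV1#1 and at 8.70, 15.45 and 15.27 after SiREV1#2. The groups overlapped and the sign differed between same-numbered pairs for both siRNAs. With the block the log2 fold change was 0.17 ± 0.13 SE after SiREV1#1 (adjusted p = 0.44) and 0.09 ± 0.15 SE after SiREV1#2 (adjusted p = 0.82). RBL2, the remaining pocket protein gene, was at 9.29 ± 1.99 FPKM in Scramble, 7.48 ± 1.47 after SiREV1#1 and 8.9 ± 2.03 after SiREV1#2, and passed in neither comparison. In these bulk libraries a lower level per cell cannot be told apart from fewer cells that express a gene.

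Within same-numbered pairs, the comparison set for these members, SiREV1#1 was below Scramble in 3 of 3 pairs for 7 of 10 members (E2F1, E2F2, E2F3, E2F6, E2F7, E2F8 and RBL1), where 32.6% of all genes were. It was above in 3 of 3 for E2F5 alone, where 19% of all genes were. SiREV1#2 was below Scramble in 3 of 3 pairs for 6 members (E2F1, E2F2, E2F4, E2F5, E2F7 and RBL1), where 28.7% of all genes were, and above for E2F3 and E2F6, where 23.4% were. E2F3, E2F5 and E2F6 had opposite signs after the siRNAs in 3 of 3 pairs each, as had 11.6% of all genes. These ratios share their Scramble libraries between the siRNAs. The log2 ratios of E2F3 were -1.09, -1.37 and -1.26 after SiREV1#1 and 0.09, 0.51 and 0.23 after SiREV1#2. Those of E2F2 were -0.61, -0.29 and -0.21 after SiREV1#1 and -1.30, -1.74 and -1.59 after SiREV1#2. Among the members, E2F7 had the widest spread after SiREV1#2, with -0.71, -1.29 and -2.11.

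**Figure D3:**
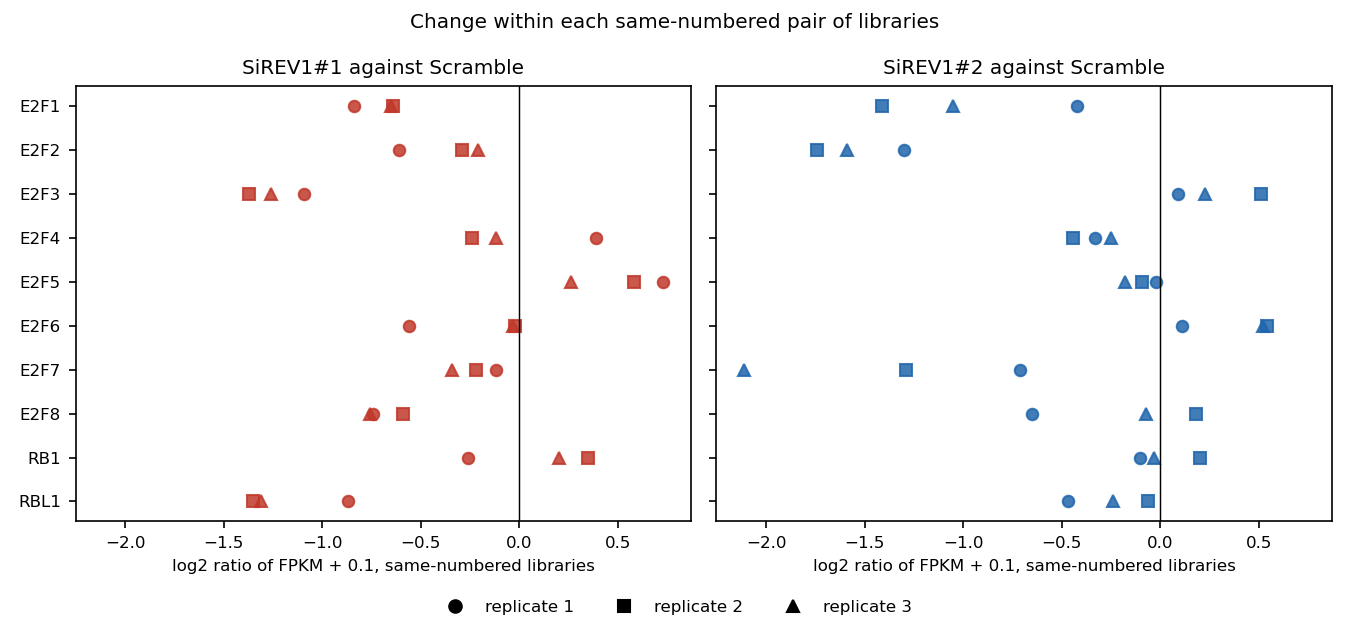
log2 ratio of FPKM + 0.1 (horizontal axes) of each siRNA library over the Scramble library of the same replicate number for the 10 members, with marker shapes for replicates 1, 2 and 3. All 3 pairs lie left of 0 for E2F1, E2F2, E2F7 and RBL1 in both panels, and those of E2F3 lie left of 0 after SiREV1#1 and right of it after SiREV1#2.

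Replicate 1 differed from replicates 2 and 3 in a way that depended on the gene. In all 3 groups it was below both other replicates for E2F3, E2F4, E2F5, E2F6, E2F8 and RB1, and above both for E2F1 and E2F2. For E2F1 the log2 ratio of replicate 1 to the mean of the other two was 0.79 in Scramble, 0.59 after SiREV1#1 and 1.59 after SiREV1#2, and for RB1 it was -0.63, -1.16 and -0.81. With replicate 1 left out of every group, limma-trend on log2(FPKM + 1) called 7 members after SiREV1#1, 6 after SiREV1#2 and 9 between the siRNAs, where it called 46.7%, 45.4% and 60.7% of all genes. Among these calls E2F4 was at -0.18 after SiREV1#1 (adjusted p = 0.026), opposite in sign to the edgeR fits.

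The DP partners that dimerise with E2F1 to E2F6 were read from a list of 3 genes, of which TFDP1 and TFDP2 were listed. TFDP1 was at 34.63, 11.96 and 11.50 FPKM in Scramble, at 18.89, 7.82 and 8.09 after SiREV1#1 and at 11.53, 2.68 and 1.89 after SiREV1#2. SiREV1#2 was lowest in every replicate number, and replicate 1 was highest in every group. TFDP1 fell after SiREV1#2 with the block (log2 fold change -1.77 ± 0.20 SE, adjusted p = 0.0092). After SiREV1#1 it was at -0.60 ± 0.16 SE with an adjusted p that rounds to 0.05 and did not pass, and the contrast of the siRNAs was 1.17 ± 0.20 SE (adjusted p = 0.0084). TFDP2 had log2 fold changes of 0.18 and 0.16 and did not pass. Without a block TFDP1 passed in none of the 3 comparisons and was at -1.38 ± 0.82 SE after SiREV1#2.

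SERTA domain proteins bind E2F and DP complexes as coregulators, and SERTAD2 is the one the study followed. The study first picked it from these libraries, so its direction here is not independent evidence. The authors also reported lower SERTAD2 mRNA by PCR and lower SERTAD2 protein in REV1-silenced cells, measured apart from these libraries. With the block SERTAD2 fell after SiREV1#1 (log2 fold change -1.16 ± 0.16 SE, adjusted p = 0.0053) and after SiREV1#2 (-1.42 ± 0.20 SE, adjusted p = 0.018). SERTAD1 fell after SiREV1#1 (-0.44 ± 0.12 SE, adjusted p = 0.048), was at 0.44 ± 0.14 SE after SiREV1#2 (adjusted p = 0.15) and differed between the siRNAs (-0.88 ± 0.14 SE, adjusted p = 0.0064). SERTAD3 had values of 0.30 and 0.40 and passed in neither. Without a block no SERTA gene passed in any comparison. SERTAD2 was then at -1.24 ± 0.62 SE after SiREV1#1 (adjusted p = 0.61) and -1.60 ± 0.72 SE after SiREV1#2 (adjusted p = 0.96).

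The MuvB complex joins RBL1 or RBL2 and E2F4 in quiescent cells and B-MYB in cycling cells. Of its 6 listed genes, 1 fell after each siRNA with the block, where 6.96% of all genes fell after SiREV1#1 and 1.41% after SiREV1#2. These were different genes, and 0 rose. RBBP4, a histone-binding subunit, was at 20.66, 11.78 and 11.36 FPKM in Scramble, at 4.44, 3.54 and 3.82 after SiREV1#1 and at 17.89, 8.91 and 8.69 after SiREV1#2. It fell after SiREV1#1 (log2 fold change -1.76 ± 0.15 SE, adjusted p = 0.0011). MYBL2, which encodes B-MYB and is itself an E2F target, was at 59.92, 38.84 and 38.89 FPKM in Scramble, at 54.36, 40.31 and 37.58 after SiREV1#1 and at 9.66, 9.23 and 9.19 after SiREV1#2. The SiREV1#2 libraries were far below all others. MYBL2 fell after SiREV1#2 with the block (-2.33 ± 0.18 SE, adjusted p = 0.0048), and its contrast between the siRNAs passed also without a block (2.28, adjusted p = 0.036). Against Scramble no gene of this list passed without a block. RBBP4 was then at -1.80 ± 0.36 SE after SiREV1#1 (adjusted p = 0.13) and MYBL2 at -2.25 ± 0.32 SE after SiREV1#2 (adjusted p = 0.15).

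Upstream of the pocket proteins, G1 cyclins and their kinases were 8 genes, of which 7 were tested. With the block 2 fell after SiREV1#1 and 0 after SiREV1#2, where 6.96% and 1.41% of all genes fell. After either siRNA 0 rose, where 5.32% and 0.493% of all genes did. Without a block 0 passed in any comparison. After SiREV1#1 that fit gave -2.01 ± 1.00 SE for CCNE2 (adjusted p = 0.62) and -0.71 ± 0.72 SE for CDK6 (adjusted p = 0.91). The values that follow are with the block. CCNE2 (cyclin E2) fell after SiREV1#1 (log2 fold change -1.81 ± 0.36 SE, adjusted p = 0.018) from a level of 0.85 ± 0.866 FPKM in Scramble, which is low. CDK6, a kinase for RB1, also fell (-0.77 ± 0.13 SE, adjusted p = 0.012) and was at 0.45 ± 0.16 SE after SiREV1#2 (adjusted p = 0.18). CCNE1 (cyclin E1) was at -0.95 ± 0.22 SE after SiREV1#2 (adjusted p = 0.074) and -0.01 ± 0.18 SE after SiREV1#1, and the siRNAs differed (0.94 ± 0.22 SE, adjusted p = 0.026). Of 7 CDK inhibitors, 5 were tested and 0 passed against Scramble, where 12.3% and 1.91% of all genes did with the block. Without a block 0 passed between the siRNAs, where 0.676% of all genes did. Between the siRNAs CDKN1A (p21) was higher after SiREV1#1 (0.99 ± 0.25 SE, adjusted p = 0.033) and CDKN1C (p57), at under 2 FPKM throughout, was lower (-1.94 ± 0.40 SE, adjusted p = 0.016). Of 9 genes of the E2F6 Polycomb complex, 0 passed in any of the 3 comparisons with or without the block. With it 12.3%, 1.91% and 17.6% of all genes passed. The smallest p, in the contrast of the siRNAs with the block, belonged to PCGF6 (-0.66 ± 0.20 SE, adjusted p = 0.062) and WDR5 (0.52 ± 0.17 SE, adjusted p = 0.072).

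Downstream, 37 textbook E2F target genes of replication and repair were all tested. With the block 12 fell and 1 rose after SiREV1#1, where 6.96% of all genes fell and 5.32% rose. After SiREV1#2, 2 fell and 1 rose, where 1.41% of all genes fell and 0.493% rose. Without a block 0 passed in either. Their median log2 fold change with the block was -0.51 after SiREV1#1, with 34 of 37 below 0 (49.5% of all genes were), and -0.34 after SiREV1#2, with 35 of 37 below 0 (49.2% of all genes were). CDK1, the mitotic kinase, fell after SiREV1#1 (-1.58 ± 0.13 SE, adjusted p = 0.0011) and was at -0.34 ± 0.15 SE after SiREV1#2 (adjusted p = 0.31). CHAF1A, a chromatin assembly subunit, fell after SiREV1#2 (-1.47 ± 0.18 SE, adjusted p = 0.011) and was at -0.37 ± 0.14 SE after SiREV1#1. UHRF1, a cofactor of maintenance DNA methylation, fell after both (-0.93 ± 0.13 SE with adjusted p = 0.0051 and -1.62 ± 0.16 SE with adjusted p = 0.0075). The gene that rose after each was CDC25A, a phosphatase that activates CDK2 (0.58 and 0.89), named after its values were seen.

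Among the targets for which the contrast of the siRNAs passed with the block, CHAF1A and UHRF1 were higher after SiREV1#1 and CDK1 and BRCA1 were lower. No target passed in this contrast without a block. BRCA1 was likewise named after its values were seen. The study tied SERTA proteins to 5 E2F response genes, and the list is not independent of this study. With the block CCNE2 and CDC6, a replication licensing factor (-0.73 ± 0.15 SE, adjusted p = 0.022), fell after SiREV1#1, where 6.96% of all genes fell. After SiREV1#2, 0 passed, where 1.91% of all genes did. All 5 had log2 fold changes below 0 after both with the block, as had 49.5% and 49.2% of all genes. Without a block 0 passed, and 5 were below 0 after SiREV1#1 and 3 after SiREV1#2.

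**Figure D4:**
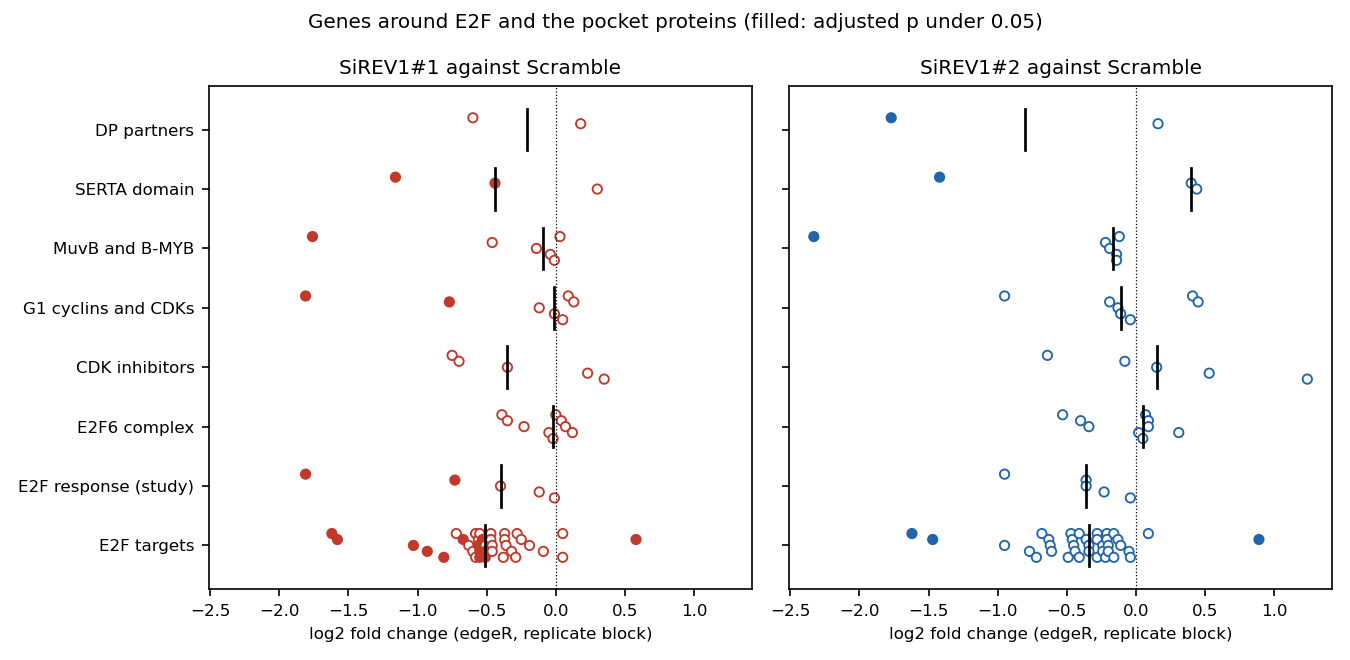
edgeR log2 fold changes with the replicate block (horizontal axes) of the genes in 8 lists around the family, one circle per gene, filled where the adjusted p was under 0.05, with a vertical line at each list's median. The textbook E2F targets sit mostly left of 0 in both panels with 12 filled circles to the left after SiREV1#1 and 2 after SiREV1#2, and the far left circle among the MuvB genes is RBBP4 on one side and MYBL2 on the other.

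For each member that passed, the genes with the most similar pattern were found by Pearson correlation of log2(FPKM + 1) over 9 libraries, after the mean of each replicate number had been subtracted, among 11429 genes with a mean of at least 1 FPKM. For E2F3 they were INIP (r = 0.9968), JADE3 (0.9956) and TRMT10C (0.9954), and 501 genes had r over 0.95. For RBL1 they were EAF1 (0.9971), KIF4A (0.9949) and KIF24 (0.9941), with 214 genes over 0.95. For E2F2 they were BOP1 (0.9951), TSPAN17 (0.9929) and CSGALNACT1 (0.9922), with 190 genes. For E2F7 they were STK32B (0.9913), PI4KA (0.9880) and ZBTB8A (0.9870), with 86 genes. For E2F5 they were FST (0.9938), MBLAC2 (0.9844) and ARF3 (0.9830), with 83 genes. With 3 groups and 9 libraries that share their libraries, depth and replicate numbers, values this high are common, and they describe the libraries without a test.

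The members lie on 9 chromosomes in GENCODE release 29 (GRCh38), with E2F1 (20, 33675683 to 33686404, minus strand) and RBL1 (20, 36996349 to 37095995, minus strand) on the same one. E2F3 is on chromosome 6 (20401906 to 20493715, plus strand), E2F2 on chromosome 1 (23506430 to 23531220, minus strand) and E2F7 on chromosome 12 (77021247 to 77065580, minus strand). E2F4 is on chromosome 16 (67192169 to 67198918, plus strand), E2F5 on chromosome 8 (85177225 to 85217158, plus strand), E2F6 on chromosome 2 (11444375 to 11466177, minus strand), E2F8 on chromosome 11 (19224063 to 19241620, minus strand) and RB1 on chromosome 13 (48303726 to 48599436, plus strand).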

How the data were processed

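Poly(A) RNA of 9 A549 libraries was sequenced on a BGISEQ-500. For each library the authors deposited expected counts per gene (not normalized) and FPKM values. The submitters' processing notes name StringTie 1.3.3b and hg38. The aligner, the annotation and the strand setting are not given in the sources used here. Of the expected counts 42.6% were not whole, and they were rounded.

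Libraries were grouped by their labels. Counts were tested with edgeR 4.0.16 (R 4.3.3): filterByExpr, TMM, quasi-likelihood F tests from a single model of 3 groups without a block, and Benjamini-Hochberg adjustment over 14205 genes with a threshold of 0.05. Standard errors were derived from each log2 fold change and its F value. The design had 9 libraries, and 8 entered because 1 count column repeats another. Same-numbered libraries deviated together from their group means (r from 0.733 to 0.929 in 9 pairs of libraries). Libraries with different numbers were not compared, and replicate 1 stood apart in every group. These values therefore cannot show that the numbers, which come from the labels, pair the samples. The fit with the replicate block is given beside the other. The biological coefficient of variation was 0.412 without and 0.161 with the block. FPKM ratios used a pseudocount of 0.1. An exact permutation test of 3 against 3 libraries cannot go below p = 0.1 (two-sided), and none is given.

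Alternatives were DESeq2 1.42.0, upper-quartile scaling, no filter, limma 3.58.1 on log2(FPKM + 1) and log2(FPKM + 0.1), replicates 2 and 3 only, and leaving out each library. Leaving libraries out of the fit with the block was added after the data were seen. The members and the gene lists were chosen with earlier results of these data known. Beside the members and REV1, the text names every DP, RBL2 and SERTA gene, at most 4 genes per list that passed in either fit (2 by smallest p where none did), and the 3 genes most similar to each member that passed. A gene that this rule named is not reported here. Sequences come from RefSeq promoter windows and GENCODE 29 transcripts; E2F5 and E2F8 had no promoter window in the table. Python 3.11.15 did the rest.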

Additional observations from a re-analysis of the deposited data

Results flagged for a closer look

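The FPKM ratios of E2F3, E2F5 and E2F6 to Scramble had opposite signs after the 2 siRNAs in 3 of 3 same-numbered pairs each, as had those of 11.6% of all genes, and some ratios were close to 0 (-0.02 for E2F5 after SiREV1#2 and for E2F6 after SiREV1#1). Against Scramble, E2F3 and E2F5 passed after SiREV1#1 with the block, and the other comparisons of these genes with Scramble did not pass in either edgeR fit. The difference itself, SiREV1#1 minus SiREV1#2 on the log2 scale by edgeR, was -1.47 for E2F3 without a block (adjusted p = 0.067) and passed with the block (adjusted p = 0.0033). It was 0.73 for E2F5 (adjusted p = 0.42 without and 0.034 with the block) and -0.41 for E2F6 (adjusted p = 0.79 and 0.056), so the difference of E2F6 passed in neither edgeR fit, while limma-trend with the block called it (adjusted p = 0.013). Groups of 3 libraries were not searched for single outlying libraries.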

How the results depend on the processing

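Over 30 log2 fold changes (10 members in 3 comparisons) and 16 alternatives, 398 of 480 kept direction and side of the threshold, 27 changed sign and 57 passed where the fit without a block did not, 2 of them with a changed sign. Members called after SiREV1#1, after SiREV1#2 and between the siRNAs, which were 0, 0 and 0, became 3, 2 and 5 with the replicate block, 2, 2 and 3 by DESeq2, 4, 3 and 6 by limma-trend with the block, and 7, 6 and 9 by limma-trend with replicates 2 and 3 only, a fit that called 46.7%, 45.4% and 60.7% of all genes. Between the siRNAs they became 1 with upper-quartile scaling (0.76% of all genes) and 2 by limma-trend without the block (4.15% and 4.17% at pseudocounts of 1 and 0.1). Leaving out 1 library kept 0 called without the block and gave 0 to 4, 0 to 2 and 1 to 6 with it. Leaving out a SiREV1#2 library left that group 1 library with counts, assumed to vary like the others. The cause of these shifts was not tested.

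Sign changes were in values that passed in neither edgeR fit. RB1 after SiREV1#2 was -0.06 without the block and 0.09 with it, 0.03 by limma-trend at both pseudocounts and with the block, and 0.08 with replicates 2 and 3 only. E2F1 between the siRNAs was -0.12 and became 0.21 with the block, 0.20, 0.25 and 0.20 by limma-trend, and 0.49 with replicates 2 and 3 only (adjusted p = 0.0019). With those replicates E2F4 after SiREV1#1 became -0.18 (adjusted p = 0.026) and E2F8 after SiREV1#2 became 0.05. Over the fits without the block that leave out 1 library, the lowest and highest values after SiREV1#1 were -0.14 and 0.19 for E2F4 and -0.24 and 0.15 for E2F6. After SiREV1#2 they were -1.67 and 0.11 for E2F1, -0.16 and 0.59 for E2F3, -0.51 and 0.07 for E2F5, -0.18 and 0.70 for E2F6, -1.15 and 0.34 for E2F8 and -0.51 and 0.29 for RB1. Between the siRNAs they were -0.74 and 1.02 for E2F1, -0.79 and 0.10 for E2F6, -0.98 and 0.51 for E2F8 and -0.09 and 0.72 for RB1.

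Depth was at least 13059082 counts per library. Over the genes tested the biological coefficient of variation was 0.412 without and 0.161 with the block. Spread between replicates was not compared with counting error gene by gene.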
